A study of Drosophila melanogaster with 2 samples.

Results

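The cytoplasmic ribosomal protein genes of Drosophila melanogaster were taken as every nuclear protein-coding gene of the dm6 annotation whose symbol starts with RpL or RpS. The rule gave 92 genes of 13968 protein-coding genes, of which 54 encode proteins of the large subunit (RpL) and 38 encode proteins of the small subunit (RpS). Binding of the homeodomain factor Hmx had been measured by ChIP-seq, in which chromatin pulled down with an antibody is sequenced, in embryos of mixed sex, 0 to 24 h old. Both samples were whole embryos of the strain Hmx-MiMIC-GFP, in which an eGFP exon placed inside an intron of Hmx yields an Hmx-eGFP fusion protein. They formed 1 group of 2 samples, labelled biological replicates 2 and 3, and no other genotype or stage was compared. By the sample description the antibody was against GFP, although another label gives it as Hmx. All embryos came from 1 insertion line, the tagged protein is made wherever Hmx itself is expressed, and no cell type was sorted, so the cells in which a region was bound are unknown. More cells with binding and more binding per cell cannot be told apart in such samples. The control used in calling the regions was not analysed here, and no level in untagged embryos stands beside the values.

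The deposited files were lists of enriched regions, with no read counts, so sequencing depth is unknown. Each replicate and the pool of both had a list of 30000 regions, which the labels describe as peaks and background. A further list, named as the optimal set of the irreproducible discovery rate (IDR) procedure, held 1607 regions, which were exactly the 1607 strongest of the pooled list, and 1595 lay on nuclear chromosomes. A region of this set need not be strong, or present, in each replicate. Each region has a summit, the base of highest enrichment, and a signal on the caller's own scale, which ranks regions within a list and was not compared between lists. A gene is called bound below when the summit of an IDR region lay inside it or up to 1 kb upstream. Positions are in bp from the gene's own outermost annotated start, negative upstream.

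The ribosome is built from ribosomal RNA and a set of proteins that are needed in equal amounts, and in every growing cell their genes are among the most highly transcribed. In Drosophila many of these genes begin transcription in a short run of pyrimidines, the polypyrimidine initiator, which replaces the usual initiator and is served by the TBP-related factor Trf2, and some carry the DNA replication-related element (DRE), bound by Dref. Loss of 1 copy of many of these genes gives the Minute phenotype of slow development and short bristles. Hmx is an NK-class homeodomain protein, and genes of its family are known for parts in the developing nervous system and, in vertebrates, the inner ear. Of the 5 members with a symbol ending in -like, RpL24-like, RpL7-like and RpLP0-like are related to yeast proteins that assemble the large subunit and do not stay in it, so the symbol rule holds a few genes whose products are not ribosomal proteins in the strict sense.

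The DNA at the strongest summits is printed first because the positions and motifs described later refer to it. The 4 strongest bound members and RpL23A, which is the strongest with no other gene at its summit, are given on dm6 from the RefSeq copy of the assembly, read on the gene's strand from 100 bp before the summit to 100 bp after it, and stopping 30 bases into the transcribed part. The summit is base 101 in each. Capitals mark the letters of any motif searched (listed with the motif counts) or of a polypyrimidine initiator within 10 bp of an annotated start.
RpL34b, chr3R:9401227-9401427, minus strand: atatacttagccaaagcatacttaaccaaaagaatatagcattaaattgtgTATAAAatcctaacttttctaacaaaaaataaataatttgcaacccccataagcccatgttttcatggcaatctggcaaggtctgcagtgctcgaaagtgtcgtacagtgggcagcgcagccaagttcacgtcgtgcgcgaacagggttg
RpL32, chr3R:30046277-30046477, minus strand: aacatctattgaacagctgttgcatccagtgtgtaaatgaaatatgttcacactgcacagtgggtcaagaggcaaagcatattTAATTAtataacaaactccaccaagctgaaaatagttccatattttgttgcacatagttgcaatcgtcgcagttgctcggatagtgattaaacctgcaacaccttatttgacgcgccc
RpS27, chr3R:25247485-25247644, minus strand: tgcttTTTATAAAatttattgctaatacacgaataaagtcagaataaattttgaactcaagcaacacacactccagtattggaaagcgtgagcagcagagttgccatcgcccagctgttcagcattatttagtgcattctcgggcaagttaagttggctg
RpS20, chr3R:20821887-20822087, plus strand: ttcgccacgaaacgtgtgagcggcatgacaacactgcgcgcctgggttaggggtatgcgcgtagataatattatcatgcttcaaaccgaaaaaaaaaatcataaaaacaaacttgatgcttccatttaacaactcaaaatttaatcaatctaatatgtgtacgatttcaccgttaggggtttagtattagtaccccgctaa
RpL23A, chr3L:1668630-1668830, minus strand: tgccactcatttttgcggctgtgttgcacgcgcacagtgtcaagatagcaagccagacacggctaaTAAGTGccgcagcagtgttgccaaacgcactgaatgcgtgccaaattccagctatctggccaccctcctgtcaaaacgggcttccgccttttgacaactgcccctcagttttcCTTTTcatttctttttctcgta
Among these windows, RpL32 alone held the homeodomain letters TAATTA and RpL23A alone held TAAGTG, and the RpS20 window held none of the searched motifs.

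A second set is shown because the DRE lay at or beside the summit. RpL28, RpL26 and RpS25 are 3 of the 4 bound members with a DRE within 51 bp of an IDR summit.
RpL28, chr3L:3222942-3223142, minus strand: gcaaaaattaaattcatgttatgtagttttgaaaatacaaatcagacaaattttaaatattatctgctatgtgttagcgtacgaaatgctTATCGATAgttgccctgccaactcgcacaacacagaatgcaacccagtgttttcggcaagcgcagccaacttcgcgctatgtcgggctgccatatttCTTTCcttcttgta
RpL26, chr3L:18898775-18898904, plus strand: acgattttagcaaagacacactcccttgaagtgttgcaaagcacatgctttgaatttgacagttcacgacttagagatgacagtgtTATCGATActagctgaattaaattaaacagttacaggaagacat
RpS25, chr3R:11216258-11216446, minus strand: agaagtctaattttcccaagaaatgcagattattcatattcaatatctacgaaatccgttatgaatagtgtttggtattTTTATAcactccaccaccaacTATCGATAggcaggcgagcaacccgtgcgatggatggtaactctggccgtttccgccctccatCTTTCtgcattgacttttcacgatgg
For contrast, RpS12 has one of the strongest signals among the unbound members, and RpL14 and RpL36A had no region in any list. The windows of RpL14 and RpL36A are centred on the outermost annotated start, which is base 101 in them.
RpS12, chr3L:13023231-13023381, plus strand: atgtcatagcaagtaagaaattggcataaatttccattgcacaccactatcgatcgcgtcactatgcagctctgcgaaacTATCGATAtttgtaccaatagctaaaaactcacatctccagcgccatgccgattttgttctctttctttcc
RpL14, chr3L:8600906-8601035, plus strand: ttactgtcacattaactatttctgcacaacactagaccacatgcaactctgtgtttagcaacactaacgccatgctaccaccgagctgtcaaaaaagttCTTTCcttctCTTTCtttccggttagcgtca
RpL36A, chr2L:8042880-8043009, minus strand: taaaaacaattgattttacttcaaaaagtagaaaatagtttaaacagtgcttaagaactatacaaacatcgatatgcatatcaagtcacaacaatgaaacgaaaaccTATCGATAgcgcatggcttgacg
RpS12 and RpL36A held a DRE without an IDR summit at the gene, and RpL14 held initiator letters at its start.

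Hmx-eGFP summits lay at 26 of the 92 ribosomal protein genes, which is 28.3% (95% Wilson interval 20.1% to 38.2%, counting error only). By the same rule 12.2% of all protein-coding genes were bound. Large-subunit genes made up most of the bound members, with 20 of 54 bound (37.0%, interval 25.4% to 50.4%), against 6 of 38 small-subunit genes (15.8%, interval 7.44% to 30.4%). The intervals of the subunits overlapped, and the small-subunit interval included the genome-wide share. The design has no second condition and the genes were chosen with earlier results known, so no test was made and these shares are a description. Transcription was not measured here, so members and all genes were not matched for it.

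Ribosomal protein genes are short. Their loci had a median length of 1315 bp, against 2178 bp for the other protein-coding genes. Of the 10135 other genes whose length fell in the members' range, 8.69% were bound, and of the 2925 within the members' quartiles of length, 7.97%. Bound and unbound members were of much the same length, with medians of 1325.5 bp in the bound and 1286 bp in the unbound members.

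**Figure D1:**
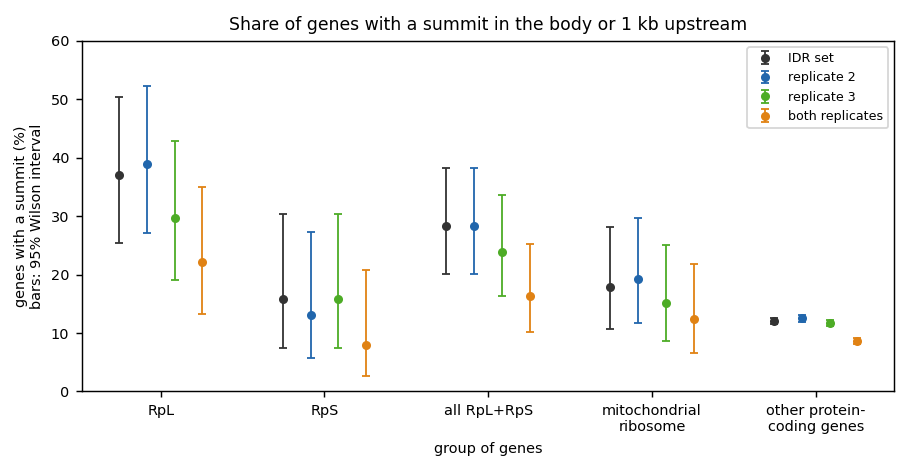
Percent of genes (vertical axis) with a summit in the body or 1 kb upstream in 5 groups of genes (horizontal axis), for the IDR set, the 1607 strongest regions of each replicate, and genes called in both replicates. Points are shares and bars are 95% Wilson intervals. The RpL points lie at 37.0%, 38.9%, 29.6% and 22.2%, and the RpS points at 15.8%, 13.2%, 15.8% and 7.89%.

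Each replicate was also read alone, from its 1607 strongest regions. Replicate 2 gave 26 members, 21 RpL and 5 RpS, where 12.6% of all genes were called. Replicate 3 gave 22 members, 16 RpL and 6 RpS, where 11.8% of all genes were called. In both replicates at once, 15 of 92 members were called (16.3%), beside 8.66% of all genes. Of the 26 bound members, 23 were among the strongest regions of replicate 2 and 18 among those of replicate 3, and none was outside both. The IDR set is the strongest part of the pool of these same replicates, so such overlap was likely in advance. The like shares over all bound genes were not counted.

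The bound members' 27 summits had signals of 80.4 to 222.8 with a median of 116.8, and quartiles of 94.7 and 137.1. All 1595 nuclear IDR regions had a median of 110.5 and reached 1041. The ribosomal protein summits thus sat near the middle of the IDR set, with 16 of 27 above its median and the best at rank 183. With the IDR set cut at its median signal, 16 members were bound, beside 6.71% of all genes.

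**Figure D2:**
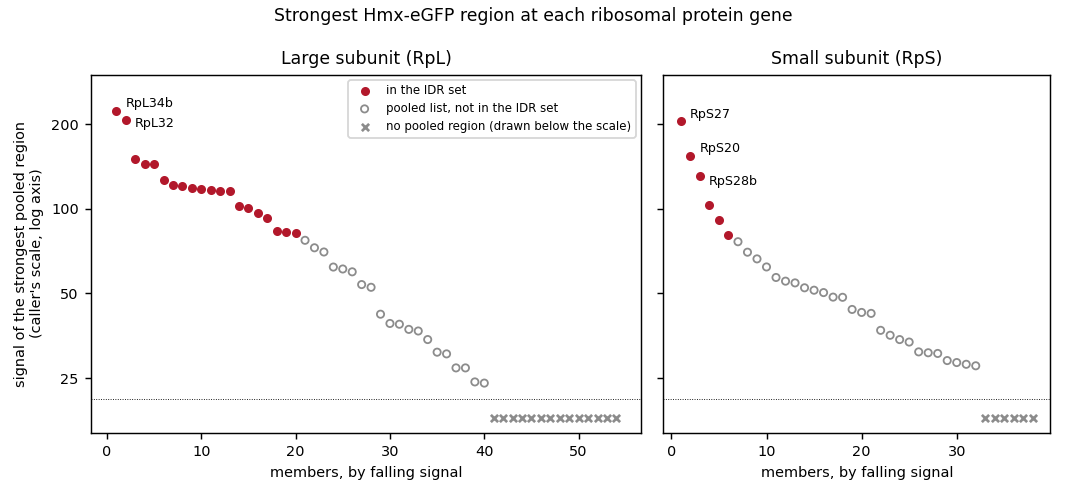
Signal of the strongest pooled region at each member (vertical log axis, caller's scale) against the member's place in falling order (horizontal axis), large subunit left and small subunit right. Filled points are the 26 bound members, open points have a pooled region outside the IDR set, and crosses mark the 20 members with none.

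RpL34b, a large-subunit protein, had the highest signal, at 222.8 with the summit at -101 bp. Its signal was 94.0 in replicate 2, rank 330, and 123.2 in replicate 3, rank 121. RpL32, whose transcript (rp49) is a common reference in fly expression work, followed at 207.5 with the summit at -216 bp. It had 116.2 in replicate 2 and 91.1 in replicate 3, at ranks 209 and 240. RpS27, a small-subunit protein with a zinc finger, reached 204.5 with the summit at -30 bp, with 119.9 in replicate 2 and 84.2 in replicate 3. These genes stood apart from the rest of the members, whose signals began at 154.0. The regions at RpL32 and RpS27 were also the narrowest among the members, 112 bp and 139 bp wide where the other 25 had 436 bp.

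Among the next small-subunit genes, RpS20, which sits in the head of the subunit, had 154.0 at -194 bp, with 84.3 in replicate 2 and 70.9 in replicate 3. RpS28b, a small protein near the mRNA exit, had 130.4, with 82.9 in replicate 2 and 52.6 in replicate 3. Its summit at -708 bp was the farthest of all from its own gene and the only one more than 500 bp away, so that 25 members had an IDR summit within 500 bp of an annotated start, beside 9.03% of all genes. RpS16, which reaches toward the decoding centre, had 102.9 and 44.6 in replicate 2, with no region in replicate 3. RpS25 had 91.3 at -59 bp, with 34.9 in replicate 2 and 47.0 in replicate 3. RpS27A, made as a fusion to ubiquitin, had the lowest bound signal of all, 80.4 at -147 bp, with 40.1 in replicate 2 and 40.3 in replicate 3. The 6 small-subunit summits therefore spanned the members' whole range but for RpL34b and RpL32.

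Among the bound large-subunit genes, RpL23A, which forms part of the docking site for the signal recognition particle, had 143.9 at -76 bp, with 70.8 in replicate 2 and 67.9 in replicate 3. RpL26, also beside the tunnel exit, had 115.7 with the summit on its annotated start, 0 bp away, and 64.8 and 49.8 in replicates 2 and 3. RpL4, which reaches into the tunnel wall, had 81.7 at -143 bp, with 39.5 and 42.3 in replicates 2 and 3. RpL23A was thus above the median of all nuclear IDR regions and RpL4 near the lower end.

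RpL23, at the face toward the small subunit, had 144.7 at -363 bp, with 80.6 and 57.1 in replicates 2 and 3. RpL24, which forms a bridge to the small subunit, had 120.0 at -105 bp, with 66.1 and 53.4 in replicates 2 and 3, where the summits lay at -105 bp and -101 bp. RpL19, another bridge protein, had 92.5 at -85 bp and 59.0 in replicate 2, with no region in replicate 3. RpL41, the smallest ribosomal protein, had 96.8 at -81 bp, with 65.0 and 35.7 in replicates 2 and 3. RpL8, a core protein next to the catalytic centre, had 82.6 at -81 bp, with 58.7 and 24.6. RpL8 ranked 904 in replicate 2 and 6571 in replicate 3. Over the 22 bound members with a region in each replicate, 12 ranked better in replicate 2 and 10 in replicate 3.

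Of the remaining large-subunit genes, RpL28 was the only member with more than 1 IDR summit, one of 126.9 at -82 bp and one of 91.3 at -282 bp. Their regions overlapped, and the weaker summit lay nearer to the start of the neighbouring gene eIF1 than to that of RpL28. RpL18 had 121.2 and RpL13 had 118.0, both with summits inside the neighbouring gene. RpL34a, the paralog of RpL34b, had 118.8 at -163 bp. RpL7 had 116.8 and its summit lay downstream of its start, at 37 bp. RpL11, which with RpL5 carries a small ribosomal RNA into the large subunit, had 115.3 at -209 bp. RpL27A had 102.0 and RpL13A 100.9, and neither had a region in replicate 3. RpL37A had 83.3 at 25 bp, and its rank was 829 in replicate 2 and 9204 in replicate 3.

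**Figure D3:**
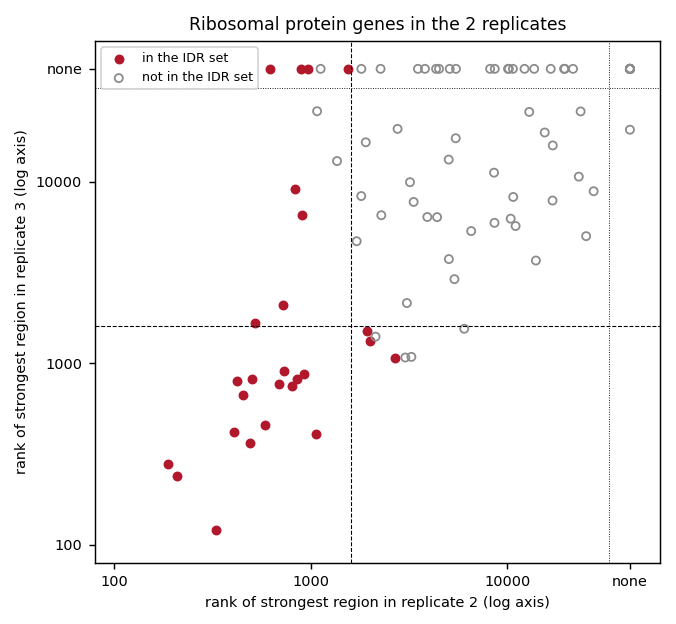
Rank of each member's strongest region among 30000 in replicate 2 (horizontal log axis) and replicate 3 (vertical log axis), with rank 1 strongest and members without a region drawn at "none". Dashed lines mark rank 1607. Of the 26 bound members (filled), 15 lie in the lower left corner, and 4 have no replicate 3 region.

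The replicates placed the summits close together but not at the same base. In the 22 bound members with a region in each, the strongest summits of the replicates were a median of 68 bp apart, from 4 bp to 187 bp, with 10 within 50 bp and 17 within 100 bp. The 4 bound members without a replicate 3 region were RpS16, RpL27A, RpL13A and RpL19. Over all 92 members, 11 had no region of the replicate 2 list and 34 had none of the replicate 3 list. Put as shares, 88.0% of members had some region of the replicate 2 list, against 61.3% of all genes, and 63.0% had some region of the replicate 3 list, against 55.6% of all genes. At a deposited q value below 5% the replicate 2 list held 4619 regions and the replicate 3 list 2050, and the part of this difference in the members' gap was not tested.

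Summits lay just before the genes. The median position was -105 bp, with quartiles of -204.5 and -74 bp, and 23 of 27 summits were upstream of the outermost start, 22 of them within 400 bp. Large- and small-subunit summits had almost the same median, -105 bp for 21 RpL summits and -103 bp for 6 RpS summits. The 26 member summits within 500 bp of the outermost start had a median of -103 bp and 84.6% of them were upstream. At other protein-coding genes 1090 of 2021 pairs of summit and gene (53.9%) lay within 500 bp, with a median of -149 bp, and 87.2% of those were upstream. The rule also takes summits in the gene body, and the members are shorter, which leaves less room far from the start. The share within 500 bp was not matched for locus length.

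RpS16 had its summit at 201 bp, inside the gene as annotated, but only -181 bp from another annotated start, and RpL37A changed likewise to -18 bp. RpL7 and RpL26 stayed at 37 bp and 0 bp. Measured to the nearest annotated start in place of the outermost one, the median over the 27 summits was -143 bp. These genes have several annotated starts, and which of them was used in the embryos was not measured.

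**Figure D4:**
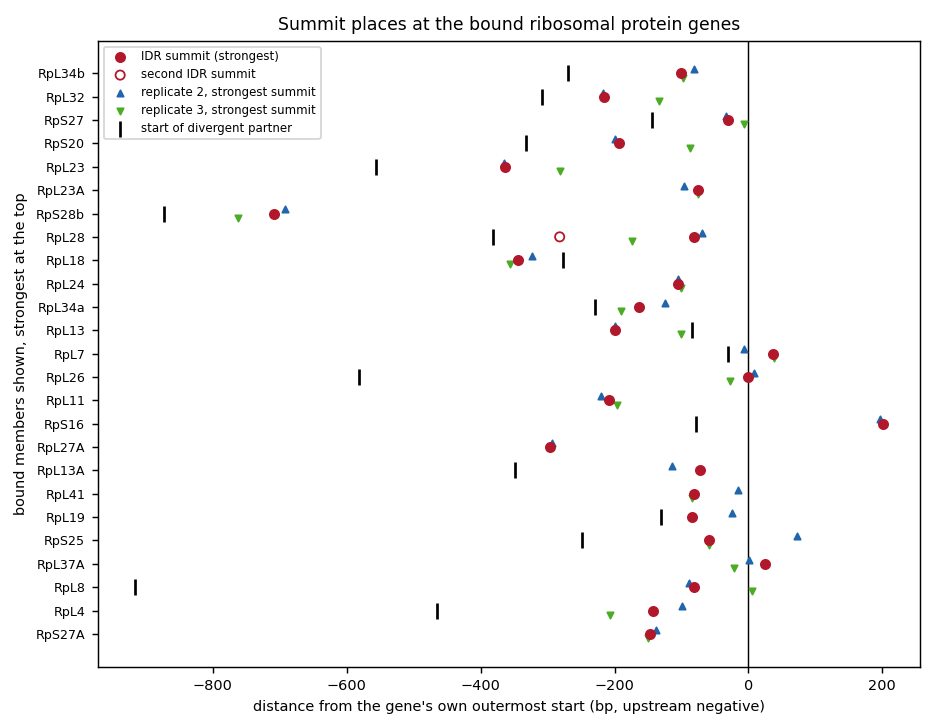
Position of the summits at 25 of the bound members (vertical axis, strongest at the top) relative to the gene's outermost start (horizontal axis, bp, upstream negative), for the IDR set and for the strongest region of each replicate, with the start of the divergent partner as a bar. IDR summits lie mostly upstream of the member's start, and RpS28b at -708 bp is farthest upstream.

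Many ribosomal protein genes share their upstream DNA with a gene read in the opposite direction. A divergent partner, a protein-coding start on the other strand within 1 kb upstream, was annotated for 19 of 26 bound members (73.1%) and 35 of 66 unbound members (53.0%). Among other protein-coding genes it was annotated for 53.3% of the bound and 30.3% of the unbound. Of the members with a partner, 19 of 54 were bound (35.2%, interval 23.8% to 48.5%), against 7 of 38 without one (18.4%, interval 9.22% to 33.4%). For other genes the same shares were 19.4% and 8.42%. Bound members had a median of 272 bp to the next upstream gene of any kind, against 554.5 bp for unbound members. Genes overlapping the member were passed over. At every bound member with a partner this gap ended at the partner, so it is not a separate trait. It was not measured for other genes.

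All 19 partners took the same summit, which the 1 kb rules for partners and summits make likely in advance. The lists alone therefore cannot assign it to either gene. The summit lay between the paired starts in 14 of 19 cases, and was nearer to the member's start in 10 and nearer to the partner's in 9. At RpL34b the summit was -101 bp from its own start and -168 bp from that of CG8132, in a gap of 269 bp. At RpL32 it was nearer to the partner, CG7943, at -93 bp. At RpS27 it was -114 bp from Nup37, a nuclear pore gene, whose start is 144 bp from that of RpS27. At RpS28b it was -165 bp from l(1)G0320, so the farthest summit of the set lay close to the partner. At RpL8 and RpL26 the order was the other way, with msn, a kinase gene, at -835 bp and CG3902 at -582 bp.

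Other partners, described singly where their product is known, were as follows. RpL28 faces eIF1, a translation initiation factor, across 381 bp. RpL34a faces Trmt61, which modifies tRNA, with the summit at -66 bp from the Trmt61 start. RpL13A faces Dph4, needed for a modification of elongation factor eEF2, and the summit was also upstream of Spec2. RpL13 starts 84 bp from Dref, the gene of the DRE-binding factor, and the summit lay 116 bp inside Dref. RpL18 faces Neos in the same way, with the summit 67 bp inside Neos. RpL4 faces BCAS2, a splicing gene, and RpL7 faces Ripalpha across only 30 bp.

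Outside the divergent pairs, RpS27A shared its summit with Ip259, an overlapping gene annotated with the same start on the same strand. RpL27A had its summit within mRpL27, a mitochondrial ribosome gene, and RpL41 lies within NaCP60E, a sodium channel gene. Only RpL23A, RpL24, RpL11 and RpL37A had a summit that was in or upstream of no other protein-coding gene. In all, 18 of 26 bound members had a summit that also lay upstream of another protein-coding gene, and 8 remained without them. The same exclusion was not made for other genes, so no genome-wide share stands beside these 8. When each summit was given to the single gene with the nearest annotated start, 17 members were bound, 13 RpL and 4 RpS, beside 8.76% of all genes.

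The 66 unbound members were not empty of regions. A pooled region, often weak and possibly background, lay at 46 of them, with signals of 24.0 to 77.2 and a median of 42.3. Of these strongest summits 33 were within 500 bp of the gene's start. Short loci leave little room farther away, and the like share over all unbound genes was not counted. Over bound and unbound members together 72 of 92 had some pooled region (78.3%), beside 55.8% of all genes. Just inside the IDR limit were RpS27A at 80.4 and RpL4 at 81.7. Just outside were RpLP2, an acidic stalk protein, at 77.2 and RpS12 at 76.3, ranked 1660 and 1690.

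The next unbound members were RpL27 at 72.6, RpL6 at 70.2, RpS5a at 70.0, RpS15Aa at 66.3, RpS3A at 62.1, RpL30 at 62.0, RpL37-1 at 61.1 and RpLP0 at 59.6. These 10 were the only unbound members whose strongest region had a deposited q value below 5%, which gives 36 members at that limit (26 RpL and 10 RpS), beside 19.6% of all genes. A few unbound members were strong in 1 replicate. RpL27 ranked 1079 in replicate 2 but 24537 in replicate 3, and RpL31 ranked 1125 in replicate 2 with no region in replicate 3 or the pool. RpLP2, RpS12, RpL6 and RpL12 ranked 1078, 1405, 1087 and 1553 in replicate 3 and lower in replicate 2, at 3030, 2139, 3254 and 6041. No unbound member was among the strongest 1607 in both. The IDR set was drawn from the pool of both replicates, which makes this likely in advance.

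No region of any list lay at 9 members, 7 of them RpL, among them RpL14, RpL22, RpL22-like, RpL35, RpL36A and RpS28a. Another 11 had no pooled region but had at least 1 in a replicate, 10 of them in replicate 2 and 1 in replicate 3. The large subunit thus held most of the bound members and also most of the members without any region. It holds 54 of the 92 members, however, and 7 of 9 is a small count beside that. The share of all genes without a region in any list was not counted.

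Protein groups within the ribosome were small, and the Wilson interval of each group below included the 12.2% of all genes bound. None of the 3 stalk genes RpLP0, RpLP1 and RpLP2, whose proteins recruit elongation factors, was bound. Of the 3 genes whose products are fused to ubiquitin or a ubiquitin-like protein, RpL40, RpS27A and RpS30, RpS27A was bound. None of the 5 members with a -like symbol was bound, so leaving them out kept the count at 26.

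Paralog pairs were taken only by symbols that differ in a last letter a or b, or in the ending -like. Paralogs named in other ways were not counted, and some -like products are not ribosomal proteins in the strict sense. Of 12 such pairs, RpL34a and RpL34b were both bound, at 118.8 and 222.8. In 3 pairs 1 copy was bound, namely RpL24 and not RpL24-like, RpL7 and not RpL7-like, and RpS28b and not RpS28a. In the other 8 pairs neither was. Among those, RpS5a had 70.0 against 31.0 at RpS5b, whose expression is known to be concentrated in the ovary, and RpS10b had 57.0 against 28.4 at RpS10a. RpS14a and RpS14b lie in tandem with nearly the same sequence, and how reads of near-identical copies were placed is not given in the sources used here, so values at such copies are uncertain.

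Bound members lay on every large chromosome. On 2L 6 of 19 were bound, beside 12.8% of all genes there, and on 2R 6 of 21, beside 11.7%. On 3L 5 of 14 were bound, beside 12.7% of all genes there, and on 3R 8 of 23, beside 12.1%. On X 1 of 14 members was bound (7.14%, interval 1.27% to 31.5%), where 11.8% of all X genes were, and the single member on chromosome 4, RpS3A, was not, where 6.25% of all genes were. Nested snoRNA genes, which guide modification of ribosomal RNA from within introns, were annotated in 8 of 26 bound and 20 of 66 unbound members (30.8% and 30.3%).

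Promoter windows from 250 bp before to 50 bp after the outermost start were searched for motifs on both strands, except the initiator, which was read on the gene's strand. The DRE was searched as TATCGATA, the core of motif 1 as GTCACAC, the E-box as CACGTG, the TATA box as TATAAA and the GAGA element as GAGAGA. Letters that many homeodomain proteins prefer were searched as TAATTA and, in a second search of the same windows, as TAATTG. Letters preferred by NK-class proteins were searched as TAAGTG and, likewise in a second search, as CAAGTG. The initiator was taken as CTTTT, or the same with C as its last base, beginning within 10 bp of the start. The motifs were counted separately, so 1 stretch of DNA could count for more than 1 of them, and a match is a description and not a shown site.

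The initiator was common at ribosomal protein genes, whether bound or not. It was found at 16 of 26 bound (61.5%) and 32 of 66 unbound members (48.5%), and at 6.62% of all protein-coding genes. Allowing any annotated start, it was found at 23 of 26 bound and 53 of 66 unbound members, together 82.6%, against 9.54% of all genes. The DRE stood at nearly the same share in both kinds of member, 30.8% of bound and 30.3% of unbound, against 9.36% of all genes. The motif 1 core was in 15.4% of bound and 16.7% of unbound members, against 9.47% of all genes.

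For the homeodomain letters no single direction appeared. TAATTG was in 46.2% of bound, 24.2% of unbound and 25.2% of all promoters, which is 12 of 26 against 16 of 66 members. TAATTA was in 23.1% of bound, 28.8% of unbound and 20.4% of all promoters. TAAGTG was in 7.69% of bound, 24.2% of unbound and 14.9% of all promoters, and CAAGTG was in 19.2%, 16.7% and 17.2%. The E-box was in 15.4% of bound, 6.06% of unbound and 4.20% of all promoters, which is 4 members each of the bound and unbound. GAGA was scarce in members, 3.85% of bound and 4.55% of unbound, against 12.3% of all promoters. The TATA letters were in 13 of 26 bound and 31 of 66 unbound members, and in 45.8% of all promoters.

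**Figure D5:**
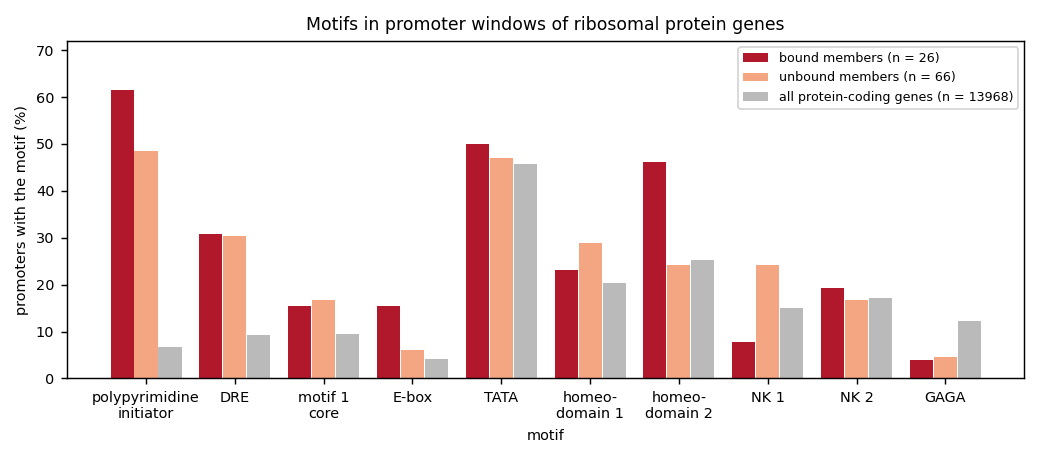
Percent of promoter windows (vertical axis) that hold each motif (horizontal axis) in 26 bound members, 66 unbound members and 13968 protein-coding genes. Homeodomain 1 stands for TAATTA, homeodomain 2 in the same way for TAATTG, NK 1 for the letters TAAGTG and NK 2 likewise for CAAGTG. The initiator bars are at 61.5%, 48.5% and 6.62%, and the DRE bars at 30.8%, 30.3% and 9.36%.

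Within 51 bp of the summits themselves, the DRE was at 4 of 27 member summits (14.8%) and at 1.25% of all 1595 nuclear IDR summits. These were the summits of RpL28, RpL26, RpS25 and RpL41, and the windows printed for RpL28, RpL26 and RpS25 show the element at base 101 or just before it. The motif 1 core was at RpL7 and RpL37A, 7.41% of member summits against 0.878% of all, and RpL7 also held the E-box. These shares compare unlike sets, since 26 of 27 member summits lay within 500 bp of the gene's outermost start. At other genes 53.9% of pairs of summit and gene did. In promoter windows of other bound genes the DRE was in 13.0% and the motif 1 core in 12.2%. TAATTA was at 14.8% of member summits and 11.4% of all, and TAATTG at 11.1% and 12.4%. The median G+C content of the windows was 33.0% at member summits and 30.1% at all.

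The mitochondrial ribosome, encoded by nuclear genes with symbols starting mRpL or mRpS, was the set most like these genes by function. Of the 92 cytoplasmic genes 28.3% were bound, against 13 of 73 mitochondrial ones (17.8%, interval 10.7% to 28.1%), and the intervals overlapped. Among the mitochondrial genes, 7 of 47 mRpL (14.9%, interval 7.41% to 27.7%) and 6 of 26 mRpS (23.1%, interval 11.0% to 42.1%) were bound, and these intervals overlapped and included the 12.2% of all genes. Cytoplasmic summits had a median signal of 116.8 and reached 222.8, against a median of 108.3 and a maximum of 743.5 over 14 mitochondrial ones. RpL34b, the strongest cytoplasmic gene, was below mRpS10 at 743.5, mRpL41 at 714.4, mRpS23 at 658.0 and mRpL23 at 395.3. One summit, of signal 102.0, counted for both RpL27A and mRpL27.

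Other genes of translation were read from lists chosen by symbol. By the same rule 12.2% of all protein-coding genes were bound, and no test was made on lists this short. Of 8 genes in a list of elongation factors plus Tctp, 4 were bound. They were eEF1alpha1 at 87.5, Tctp at 86.2, eEF1delta at 82.3 and eEF5 at 79.0, all in the lower part of the IDR set. None of 10 ribosome-assembly genes was bound, among them Fib, Nop56 and Nopp140, and the strongest pooled region there was 63.0 at Nop56. Of 7 regulators of ribosomal protein gene transcription found by symbol, Dref and Trf2 were bound. Dref had 118.0, which is the summit shared with RpL13, and Trf2 had 79.2 at 2872 bp inside its long locus. Myc, a growth regulator, lay just outside at 77.1, with the summit at 8766 bp inside its locus and far from its start.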

How the data were processed

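Per the labels' protocols, chromatin was sonicated and pulled down from 2 samples of 1 group. The authors deposited region lists on dm6 with a signal value per region, a −log10 q-value and a summit offset. Per the labels' file records, regions were called against a control alignment. The caller, the aligner, the threshold of the IDR procedure and read counts were not given in the sources used here, so depth is unknown. Region lists on dm3 were not used here.

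Summits were assigned with Python 3.11.15 and pandas 2.3.3 to protein-coding genes of Ensembl release 115 (BDGP6.54), body or 1 kb upstream. Replicates were read from their 1607 strongest regions. Sequence came from the RefSeq copy of the assembly. Shares have 95% Wilson intervals (scipy 1.17.1). Assignment was tested on simulated regions. No statistical test was made. Named are all bound members, the 10 strongest unbound, members with no region at all, paralog pairs, divergent partners and listed translation genes. Members, lists and rules were chosen with earlier results of these data known. Alternatives changed the list, the assignment rule and the start. Some members are not reported by name here.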

Additional observations from a re-analysis of the deposited data

How the results depend on the processing

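Counts under most alternatives stayed within 1.5 times the reported ones, 8 of 11 for all members and 7 of 9 for each subunit. In the stronger part of the IDR set the bound counts were 16 members, 13 RpL and 3 RpS, the median signal 128.6 and the median position -161 bp. With each summit given to the nearest annotated start they were 17 members and 13 RpL, with a median signal of 102.9. At a q value below 5% 10 RpS were bound and the median signal was 96.8. Without members whose summit is upstream of another gene, 8 remained, with no like count over all genes. Measured to the nearest annotated start, the median position was -143 bp. With a single replicate's list the counts ranged from 22 to 26 members, 16 to 21 RpL and 5 to 6 RpS, the median signal from 52.5 to 64.8 on those lists' own scales, and the median position from -141.5 bp (replicate 3 alone) to -105 bp. No paired analysis was possible because the samples form 1 group and nothing was tested between groups. With region lists and no counts, no limit from depth can be given, and weak regions may be background. Sharing of promoters limits every count, since 22 of 26 bound members had a summit that was also in or upstream of another protein-coding gene. Wilson intervals cover counting error only and treat genes as independent, which neighbouring genes and paralogs are not.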
